A study of Mus musculus with 6 samples.

Results

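Purine breakdown genes and adenosine receptors were followed in mouse mast cells with miR-155, a microRNA of immune cells (WT), and without it (miR-155 KO). The set has 10 gene names: Gda, Xdh, Pnp, Ada, Hprt, Ampd3 and Nt5e for enzymes, and Adora2a, Adora2b and Adora3 for adenosine receptors. A gene was taken where a probe set of the array carried its symbol and no other, and 7 of the 10 genes, all of them enzymes, had such a probe set among the 19938 genes measured in this way. Where a gene has several such probe sets, 1 is chosen by its mean over the 6 arrays; each of the 7 had exactly 1, so this choice removed none. Of the receptors, 0 of 3 were measured. Adora3 shares its probe set with Tmigd3 and was therefore given no value. Adora2a and Adora2b had 0 probe sets under their symbols in the annotation used here. The remaining adenosine receptor, Adora1, had none under its symbol alone. Whether the array holds unlisted probes for these receptors was not examined. The label of the set thus holds for its enzymes, and no statement about the level of an adenosine receptor can be made from the values below. The genes were listed with earlier results on these arrays known, including that of Gda, so the difference of Gda described below is not independent support for anything.

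Both genotypes were C57BL/6J bone marrow cells grown into mast cells over 5 weeks, with 1 ng/ml of SCF and 0.5 ng/ml of IL-3. All cultures, WT and KO alike, carried IgE directed at the hapten DNP (0.2 µg/ml, overnight) and were then given 20 ng/ml of DNP-HSA for 1 h, an antigen that cross-links the IgE receptor FcεRI. There were 3 WT and 3 miR-155 KO arrays, each from a culture of its own, and no array of unstimulated cells was used here. How the miR-155 allele was made, and the age and sex of the mice, were not given in the sources used here.

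Purine nucleotides are broken down through nucleosides to free bases and finally to urate. Ada turns adenosine into inosine, Pnp splits inosine and guanosine into their bases, Gda (guanine deaminase) turns guanine into xanthine, and Xdh (xanthine dehydrogenase) oxidises hypoxanthine and xanthine to urate. Hprt returns hypoxanthine and guanine to nucleotides, so Gda and Hprt draw on the same free guanine. Outside the cell, ectonucleotidases strip phosphates from ATP, and Nt5e (CD73) makes adenosine from AMP. In mast cells adenosine is known to modulate the release of granules and mediators through its receptors.

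The microRNA that separates the genotypes is encoded on chromosome 16. Its mature strands are shown because every difference below is between cells with and without them; the capitals mark the seed, bases 2 to 8, which pairs with target messages (RefSeq, GRCm38.p6, plus strand, chr16:84714143-84714165 and chr16:84714182-84714202).
mmu-miR-155-5p: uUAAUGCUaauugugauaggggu
mmu-miR-155-3p: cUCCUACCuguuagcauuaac
Mir155 itself had a mean log2 intensity of 2.99 ± 0.15 (SD, n = 3) on WT arrays and 2.86 ± 0.08 on KO arrays, below the array medians of 3.67 to 3.74, and so checks neither the deletion nor the labels.

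The arrays had the profile of mast cells. The mean over 12 mast cell markers lay between 10.03 and 10.29 on WT and between 10.18 and 10.37 on KO arrays (log2), with Fcer1a at 12.06 ± 0.13 and 12.10 ± 0.10, Kit at 11.89 ± 0.19 and 11.82 ± 0.10, and Cpa3 at 12.78 ± 0.03 and 12.97 ± 0.18. All 9 neutrophil markers and 9 of 10 macrophage and monocyte markers were below the median of all rows in both genotypes. The mean over the latter list was 3.68 to 3.90 on WT and 3.47 to 3.71 on KO arrays, and their part in the results was not tested. The 4 basophil markers averaged 5.43 to 6.45 on WT and 5.71 to 6.33 on KO arrays. Below the median of all rows in both genotypes were 3 of 6 dendritic cell, 4 of 6 erythroid and megakaryocyte, and 5 of 7 lymphocyte markers. Of 54 genes in 7 marker lists, 0 passed by limma (adjusted p under 0.05), where 0.823% of all genes did. By a test with an ordinary pooled variance per gene 0 markers passed as well. That test passed 0 of all genes, so its count says nothing about the markers. By limma 6 of the 54 had an unadjusted p under 0.05, where 12.7% of all genes did. They were 3 of the 12 mast cell, 2 of the 6 dendritic cell and 1 of the 10 macrophage and monocyte markers. Fcer1a, Kit and Cpa3 were not among these 3 mast cell markers, so their values do not stand for the whole mast cell list. Whether the genotypes matched in cell make-up was not tested. KO replicate 1 stood apart from the rest, at 32.03 on the first principal component against 5.36 and 7.31 for the other KO arrays and -19.52 to -10.57 for WT.

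Guanine deaminase was the 1 enzyme of the set whose difference between the genotypes passed by limma. Gda read 6.85, 6.91 and 7.42 on WT replicates 1, 2 and 3 and 9.42, 9.17 and 9.13 on KO replicates 1, 2 and 3 (log2 intensity as deposited). All 3 KO arrays lay above all 3 WT arrays, and the lowest KO value was well above the highest WT value. The means were 7.06 ± 0.31 and 9.24 ± 0.16 (SD, n = 3), a difference of 2.18 on the log2 scale (SE 0.16, 95% confidence interval 1.83 to 2.54), or 4.55-fold higher in KO. Gda rose by limma's moderated test over all 19938 genes (Benjamini-Hochberg adjusted p = 0.00206), where it ranked 3 by p and 17 by the size of the increase. Without KO replicate 1 the difference was 2.09 (adjusted p = 0.00253), and with any 1 of the 6 arrays left out it lay between 2.08 and 2.36 and passed in 6 of 6 fits. When all 35557 rows of the table were tested the adjusted p was 0.0477, and with an ordinary pooled variance per gene, a test in which 0 genes passed at all, it was 0.240. In these bulk cultures, more cells with the transcript and more transcript per cell cannot be told apart.

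Of the 7 genes, 1 rose, 0 fell and 6 did not pass by limma, and Gda was also the 1 gene of the 7 with an unadjusted p under 0.05. Among all genes tested 0.823% passed, 0.507% higher and 0.316% lower in KO, and 12.7% had an unadjusted p under 0.05. The groups did not overlap for Gda and overlapped for the other 6 genes, against non-overlap in 17.2% of all genes. The median difference over the 7 genes was 0.02, and -0.03 without Gda, beside -0.01 over all genes. The differences of the other 6 genes ran from -0.37 to 0.30.

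**Figure D1:**
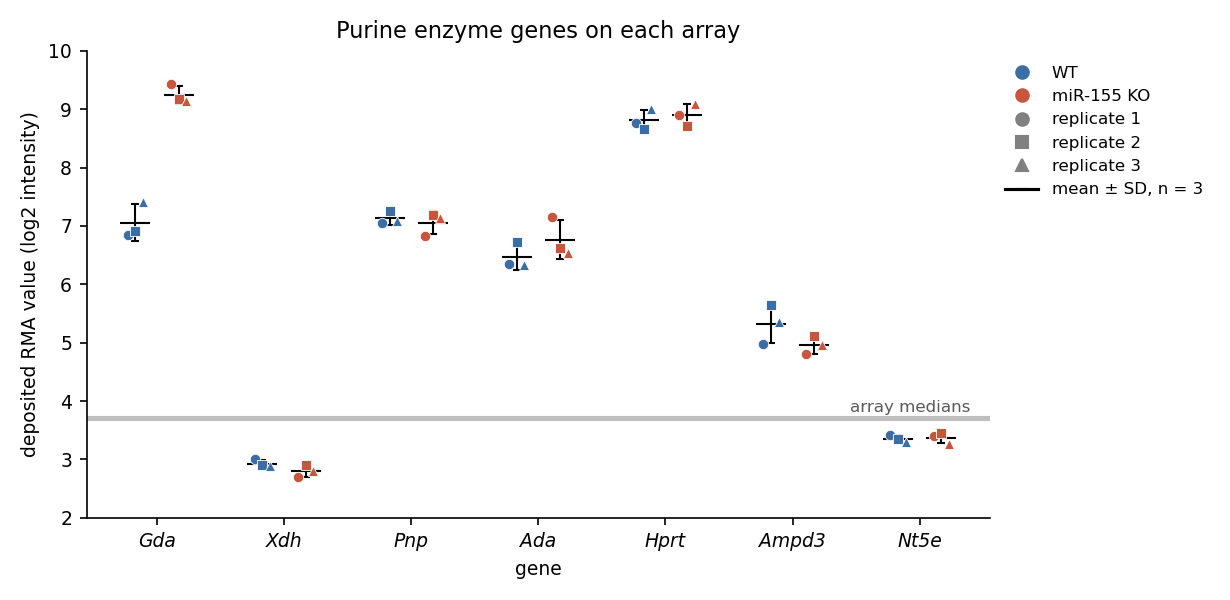
Deposited log2 intensity (vertical axis) of the 7 purine enzyme genes on each of the 6 arrays; colours give the genotype, symbols the replicate number, bars the mean ± SD of 3 arrays, and the grey band the range of the array medians (3.67 to 3.74). Gda separates by genotype with 6.85 to 7.42 in WT and 9.13 to 9.42 in KO, while Xdh and Nt5e lie below the array medians in both.

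The enzymes that act on nucleosides, Ada and Pnp, showed no such separation. Ada, which commits adenosine to breakdown on the adenine branch of the route, read 6.34, 6.73 and 6.33 on WT replicates 1, 2 and 3 and 7.15, 6.62 and 6.53 on the KO replicates. The groups overlapped, since WT replicate 2 exceeded both KO replicates 2 and 3, and KO replicate 1 was the highest of all. The means were 6.47 ± 0.23 and 6.77 ± 0.33 (SD, n = 3), a difference of 0.30 (95% confidence interval -0.10 to 0.70, adjusted p = 0.554) that was 0.11 without KO replicate 1. Pnp, which releases guanine and hypoxanthine from their nucleosides, read 7.05, 7.25 and 7.09 on WT arrays and 6.83, 7.19 and 7.13 on KO arrays. Its groups overlapped, with KO replicate 1 lowest, and the difference was -0.08 (95% confidence interval -0.34 to 0.19, adjusted p = 0.872), turning to 0.036 without KO replicate 1. A second probe set that holds Pnp also carries Pnp2, its close copy, and was not used.

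Xdh, which takes up the xanthine that guanine deaminase makes, read 3.01, 2.90 and 2.89 on WT and 2.70, 2.90 and 2.80 on KO arrays. All 6 values were below the array medians, at the dim end of these arrays, so the difference of -0.13 (95% confidence interval -0.33 to 0.07, adjusted p = 0.644, and -0.077 without KO replicate 1) says little about the transcript. Another molybdenum cofactor enzyme of similar chemistry, Aox1 (an aldehyde oxidase), was dim as well, at 3.27 in WT with a difference of 0.02. Uox, which oxidises urate further in mice, read 2.78 in WT with a difference of -0.05. The means of Xdh and Uox were below the array medians in both genotypes.

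Among the salvage and AMP handling enzymes, Hprt, which competes for guanine, read 8.77, 8.66 and 9.0 on WT and 8.91, 8.71 and 9.09 on KO arrays. The groups overlapped almost fully, with means of 8.81 ± 0.17 and 8.90 ± 0.19 (SD, n = 3) and a difference of 0.09 (95% confidence interval -0.19 to 0.38, adjusted p = 0.850). An increase or decrease of Hprt as large as that of Gda lies outside this interval. Ampd3, which turns AMP into IMP, read 4.98, 5.65 and 5.35 on WT and 4.81, 5.11 and 4.96 on KO arrays. WT replicates 2 and 3 lay above all KO arrays and WT replicate 1 lay among them. Its difference of -0.37 had a 95% confidence interval of -0.74 to 0.01 (adjusted p = 0.407), and it ran from -0.54 without WT replicate 1 to -0.20 without WT replicate 2, passing in none of these fits.

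Nt5e, the enzyme that makes extracellular adenosine, read 3.42, 3.35 and 3.30 on WT and 3.40, 3.45 and 3.27 on KO arrays, all below the array medians. The groups overlapped and the difference was 0.02 (95% confidence interval -0.18 to 0.22, adjusted p = 0.969). Without KO replicate 1 it was 0.0048.

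**Figure D2:**
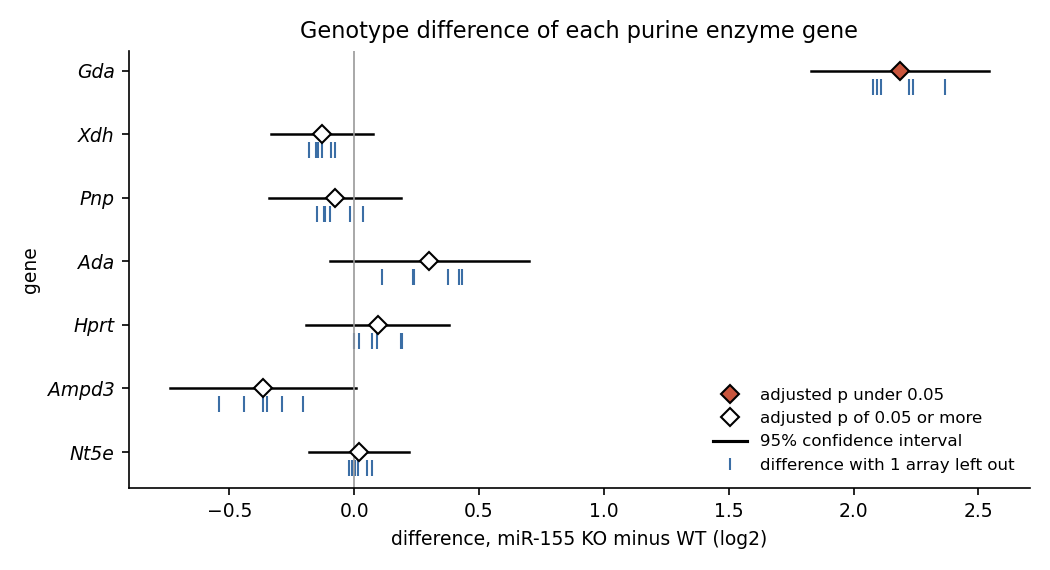
Difference between miR-155 KO and WT (log2, horizontal axis) of the 7 purine enzyme genes, with the 95% confidence interval from limma (black line) and the difference after leaving out each array in turn (blue ticks). The interval of Gda, 1.83 to 2.54, lies far from 0, and those of the other 6 genes include 0.

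The stretches of DNA before the start sites of Gda and Hprt are shown because both enzymes use guanine while their transcripts differed in how they stood between the genotypes. They are the 250 bases before each gene's start in RefSeq (GRCm38.p6), Gda on the minus strand at chr19:21472662-21472911 and Hprt on the plus strand at chrX:52987828-52988077, and 6 of the 7 measured genes had an entry there. Capitals mark matches on either strand to 5 motifs. They are the CCAAT box, spelled as its name, the GC box, searched as GGGCGG, and the TATA box, searched as TATAAA. The others are the AP-1 motif, searched as TGANTCA, and the CRE, or cAMP response element, searched as TGACGTCA.
Gda: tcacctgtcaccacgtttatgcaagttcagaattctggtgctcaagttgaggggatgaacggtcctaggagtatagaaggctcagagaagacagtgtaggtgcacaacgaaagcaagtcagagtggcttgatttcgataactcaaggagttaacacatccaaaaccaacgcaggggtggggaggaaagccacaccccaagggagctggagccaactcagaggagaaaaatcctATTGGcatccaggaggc
Hprt: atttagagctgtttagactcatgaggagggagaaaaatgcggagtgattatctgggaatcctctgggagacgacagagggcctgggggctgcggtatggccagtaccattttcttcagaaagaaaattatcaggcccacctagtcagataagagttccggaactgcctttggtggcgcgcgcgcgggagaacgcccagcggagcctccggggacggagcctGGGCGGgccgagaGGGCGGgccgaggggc
The Gda window held 1 match, a CCAAT box on the opposite strand at -17 to -13 from the start site, and the Hprt window 2 GC boxes at -29 to -24 and -16 to -11. Of 32851 such windows 33.85% held a CCAAT box, 32.74% a GC box, 12.37% a TATA box, 6.75% the AP-1 motif and 1.55% the CRE. The last 3 were not found in these letters for Gda or Hprt, and no match overlapped another in either window. The Gda window had 5 CG dinucleotides and the Hprt window 17, beside a median of 6 CG over all windows. Over the windows of the measured genes the CG count ran from 2 to 21. A CCAAT box was also found before Ada, Pnp and Ampd3, which did not pass. Whether these letters bear on the difference of Gda was not tested.

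By the measure of Pearson's correlation over the 6 arrays, the genes most like Gda among 1367 others with an SD of at least 0.3 were Ifnar1 (r = 0.995), Ikbkg (r = 0.993) and Tnip1 (r = 0.989). These values describe 6 arrays in 2 genotypes and were picked as the highest. Gda itself separated by genotype, so genes picked by their likeness to it separate too. Their differences, p-values and non-overlap below follow largely from that choice and are no independent support. Ifnar1, a chain of the type I interferon receptor, read 6.42, 6.62 and 6.74 on WT and 7.79, 7.71 and 7.59 on KO arrays, 2.15-fold higher (adjusted p = 0.00534). Ikbkg, the regulatory subunit of the IκB kinase, stood 1.55-fold higher (adjusted p = 0.0190) and Tnip1, an A20-binding protein, 1.64-fold higher (adjusted p = 0.0258). Their groups did not overlap. With 1 array left out, Ifnar1 passed in 6 of 6 fits, Ikbkg in 2 (without KO replicate 1 or 2) and Tnip1 in 2 (without WT replicate 3 or KO replicate 2). With every row tested none of the 3 passed (adjusted p = 0.0666, 0.0999 and 0.132), nor did they in the ordinary test (adjusted p = 0.257, 0.251 and 0.337).

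**Figure D3:**
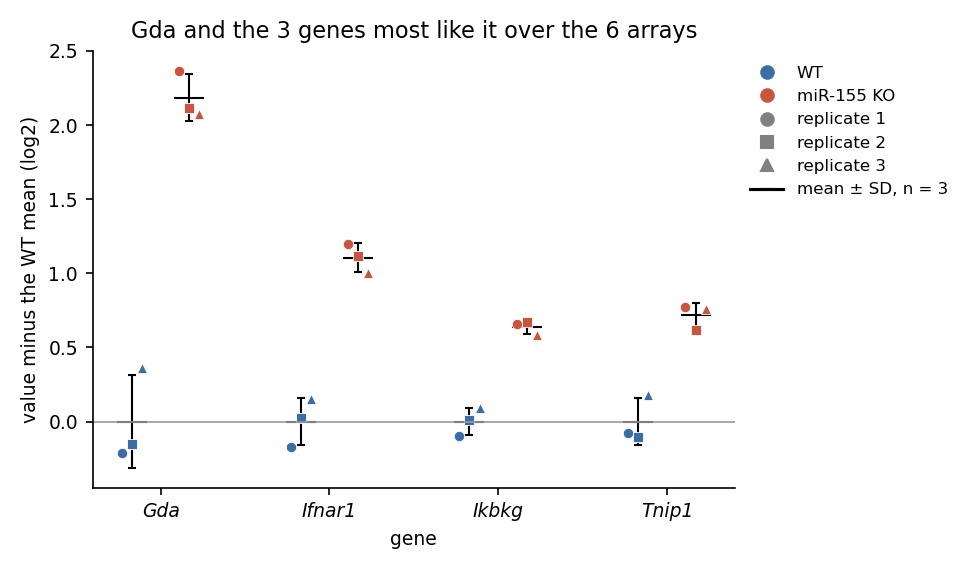
Value on each array minus the WT mean of the gene (log2, vertical axis) for Gda and the 3 genes with the highest correlation to it; colours give the genotype, symbols the replicate number and bars the mean ± SD of 3 arrays. Gda stands 2.18 above WT on average, Ifnar1 1.10, Ikbkg 0.64 and Tnip1 0.72.

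Around these enzymes, 135 further genes of purine handling and of cAMP signalling were grouped in 6 lists, of which 121 were measured. By limma 0 rose, 3 fell and 118 did not pass, with a median difference of -0.02 beside -0.01 over all genes. An unadjusted p under 0.05 was found for 23 of the 121, or 19%, beside 12.7% of all genes tested. Of the 23, 8 were among 31 genes of cAMP signalling and 6 among 31 other breakdown and salvage enzymes. Another 6 were among 15 ectonucleotidases and their relatives. The rest were 2 of 15 other receptors and 1 of 14 synthesis enzymes, with 0 of 15 transport genes. With every row tested, Samhd1, Entpd3 and Entpd4, the 3 that fell, no longer passed (adjusted p = 0.122, 0.159 and 0.162). The 3 that fell are 2.48% of the measured genes, where 0.316% of all genes fell, and groups did not overlap for 18.2%, where 17.2% of all genes did not. The lists were chosen with earlier results of these data known, so these shares are no independent support. No test of them was made.

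Of 31 other breakdown and salvage enzymes, 0 rose, 1 fell and 30 did not pass (median -0.03). Samhd1, which degrades deoxynucleoside triphosphates, read 6.28, 6.4 and 6.46 on WT and 5.77, 5.67 and 5.83 on KO arrays, every KO value being below every WT value. It fell by 0.62 log2 units (SE 0.09, adjusted p = 0.0247), a level 1.54-fold lower. The fall kept its size with 1 array left out (-0.67 to -0.58), and the test passed in 0 of these 6 fits, with adjusted p from 0.0501 without KO replicate 1 to 0.0932 without WT replicate 2. Ak3, a mitochondrial adenylate kinase family member, differed by 0.39 (95% confidence interval 0.17 to 0.62, adjusted p = 0.115). Adk, which phosphorylates adenosine and so competes with Ada, differed by -0.41 (95% confidence interval -0.73 to -0.08, adjusted p = 0.258); it is named after its values were seen.

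Of 15 genes in the list of ectonucleotidases and their relatives, 0 rose, 2 fell and 13 did not pass (median -0.07). Entpd3, a cell surface nucleotidase, read 6.13, 6.02 and 5.83 on WT and 5.30, 5.22 and 5.47 on KO arrays and fell by 0.67 (SE 0.11, adjusted p = 0.0354). Entpd4, a relative known from the Golgi and lysosomes and not from the cell surface, read 7.73, 7.81 and 7.96 on WT and 6.62, 7.06 and 7.16 on KO arrays and fell by 0.89 (SE 0.14, adjusted p = 0.0354). Neither gene's groups overlapped. With 1 array left out, Entpd3 passed in 0 of 6 fits (adjusted p between 0.0632 and 0.132), and Entpd4 in 2, without KO replicate 1 (-0.72, adjusted p = 0.0314) and without KO replicate 3 (-0.99, adjusted p = 0.0489). Entpd1 (CD39), which feeds AMP to Nt5e and is named after its values were seen, read 7.62, 7.74 and 7.78 on WT and 6.90, 6.81 and 7.44 on KO arrays. Its difference of -0.66 (SE 0.16, adjusted p = 0.102) did not pass; without KO replicate 3, the highest KO array, it was -0.86 (adjusted p = 0.0313), and it passed with none of the other arrays left out.

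**Figure D4:**
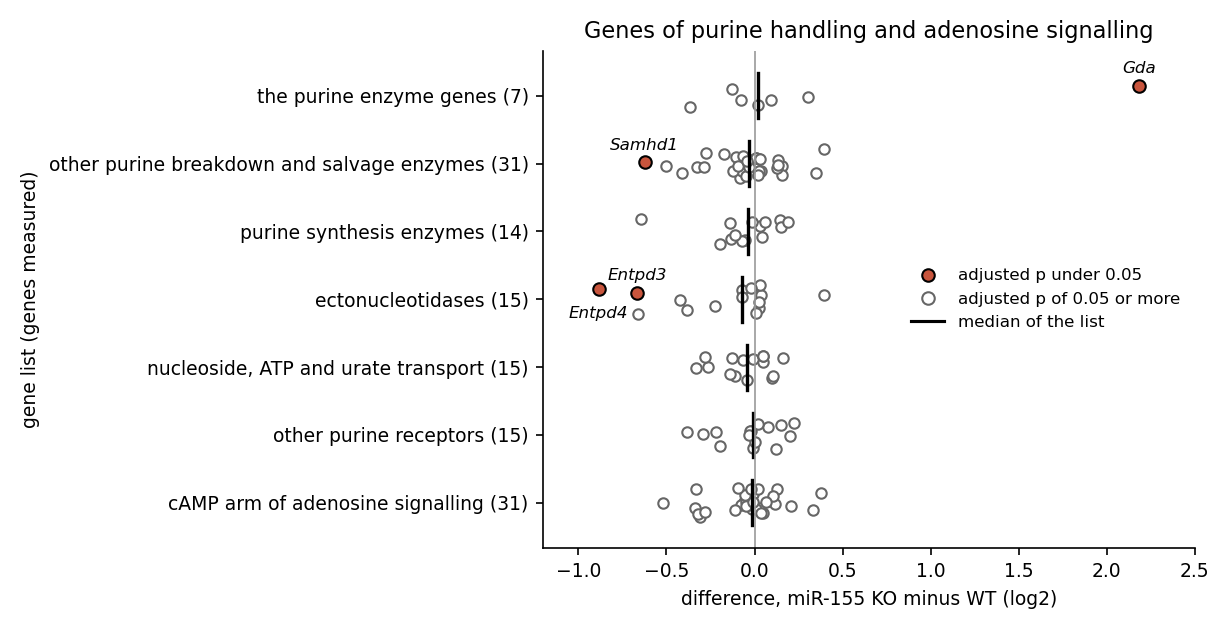
Difference between miR-155 KO and WT (log2, horizontal axis) of each measured gene, for the 7 purine enzyme genes and the 6 lists of related genes; filled points had an adjusted p under 0.05 in limma, open points did not, and black bars are list medians. Gda stands alone at 2.18, and Samhd1, Entpd3 and Entpd4 are the filled points below 0.

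In the lists of synthesis, transport, receptors and signalling, 0 genes passed by limma. Of all genes 12.7% had an unadjusted p under 0.05, and of 14 purine synthesis enzymes 1 did. This was Prps2, which makes the sugar phosphate that both synthesis and salvage by Hprt use, at -0.65 (95% confidence interval -0.999 to -0.295, adjusted p = 0.104), with all KO arrays (6.26, 6.49 and 6.80) below the WT arrays (7.17, 6.95 and 7.38). Atic, of the last steps of IMP synthesis, differed by -0.20 (adjusted p = 0.512), and by -0.12 without KO replicate 1. Of 15 transport genes 0 had an unadjusted p under 0.05; the nucleoside transporter Slc29a1 differed by -0.26 (95% confidence interval -0.57 to 0.04) and the urate transporter Slc2a9 by -0.28 (95% confidence interval -0.60 to 0.05). Without KO replicate 1 these differences were -0.13 and -0.15.

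Among 15 other purine receptors, 2 had an unadjusted p under 0.05, where 12.7% of all genes did. The 2 were P2rx7 and P2rx4, which are ATP-gated channels. P2rx7 read 8.80, 8.65 and 8.68 on WT and 8.35, 8.46 and 8.44 on KO arrays, a difference of -0.29 (SE 0.08, adjusted p = 0.165). P2rx4 differed by -0.39 (SE 0.12, adjusted p = 0.218). Groups did not overlap for 3 of the 15, P2rx7 and P2rx4 included, where 17.2% of all genes did not. Of the 15 receptor genes, 8 were below the median of all rows in both genotypes. Of 31 genes of the cAMP arm, through which adenosine receptors signal, 8 had an unadjusted p under 0.05, where 12.7% of all genes did. The lowest 2 were Pde3b, a phosphodiesterase, at -0.52 (SE 0.12, adjusted p = 0.0962) and Adcy4, an adenylyl cyclase, at 0.38 (SE 0.11, adjusted p = 0.174), the latter from a WT mean of 3.66, below the median of all rows (3.70). In the ordinary test 0 genes of any list passed, but 0 of all genes did, so that count says nothing about the lists.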

How the data were processed

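Each sample was 1 Affymetrix Mouse Gene 1.0 ST array. Per the submitters' processing notes the authors used RMA, and the deposited values are log2 intensities per probe set. The sources used here give neither its version nor the annotation build. RMA pulls dim probe sets towards a common floor, so small values understate differences. No further normalization was applied. Of 35557 rows, 21789 carried 1 gene symbol in the platform annotation, 1621 several and 12147 were not listed there; 1 row per symbol, the one with the highest mean over the 6 arrays, left 19938 genes.

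The effect of genotype came from limma 3.58.1 (R 4.3.3; lmFit, eBayes), two-sided, with 4 residual and 4.68 prior degrees of freedom and Benjamini-Hochberg adjustment over all 19938 genes. A gene rose or fell where the adjusted p was under 0.05. Differences are KO minus WT, and SE and intervals are moderated. The number of arrays, 3 per group, limits the precision. The fit was tested on simulated data.

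The members and lists were chosen with earlier results of these data known. Genes named are the 10 members, Adora1, from each list those called or, where fewer than 2 were, the 2 with the lowest p, the 3 genes most correlated with each called member, Fcer1a, Kit, Cpa3 and Mir155; Aox1, Uox, Adk and Entpd1 were named after their values were seen. Alternatives were a replicate block, median centring, a filter on dim genes, a second quantile normalization, array weights, trend and robust priors, all rows, averaged rows, an ordinary variance and each array left out. Motifs were counted with pandas 2.3.3, plots drawn with matplotlib 3.10.9.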

Additional observations from a re-analysis of the deposited data

How the results depend on the processing

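Gda kept its direction in all 15 alternatives and passed in 14, with differences of 2.08 to 2.36 and adjusted p from 1.45e-04 to 0.240, the last in the ordinary test; the other 6 enzymes passed in 0 of those that tested them. The number of the 7 genes that passed was 1 in every alternative except the ordinary test (0). Over all genes 164 passed; 4 did with every row tested, 0 in the ordinary test, and 15 to 167 with 1 array left out. Among other breakdown and salvage enzymes the count of 1 became 0 with every row tested and in the ordinary test, and was 0 to 0 with 1 array left out. Among ectonucleotidases and their relatives the count of 2 became 1 with the replicate block (Entpd3 at adjusted p = 0.0623). It was 0 with every row tested, 0 in the ordinary test and 0 to 2 with 1 array left out. The sources name no pairing of the cultures by replicate number, and whether the numbers pair them cannot be settled from these values. Same-numbered deviations correlated at -0.01, -0.06 and 0.24 over 19938 genes. With the replicate block in limma 199 genes passed, against 164 without it, and Gda had an adjusted p of 0.00771. With 1 array left out the difference ran from -0.15 to 0.036 for Pnp, -0.021 to 0.073 for Nt5e, -0.016 to 0.11 for Fcer1a and -0.15 to 0.034 for Kit; the cause was not tested. Xdh, Nt5e and Mir155 were removed by the filter on dim genes, and signal over background limits what they can show.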
